A study of Drosophila melanogaster with 12 samples.

Results

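The pair compared here consisted of the 3 libraries labelled trxRNAi sucrose and the 3 labelled Ctrl DSS, 6 of the 12 in the series. Sample titles gave the libraries of each group, and the pair was chosen with earlier results of these data known. The groups differ in genotype and in feed at once, so the share of each factor in a difference cannot be told apart. RNA came from progenitor cells of the adult female Drosophila melanogaster intestine, sorted by green fluorescent protein (GFP), and was read at transcript 3′ ends. Both groups carried esgtsGFP, a GFP reporter and temperature-sensitive driver active in midgut progenitors. In the trxRNAi flies it was crossed to UAS-trxRNAi (BDSC#33703), a single RNA interference line against trithorax (trx), and in the control flies to w1118. Mated females 3 to 4 days old spent 7 days at 29 °C, and for the last 48 h the trxRNAi flies of this pair received 5% sucrose and the control flies 3% DSS, the irritant dextran sulfate sodium, which injures the gut epithelium. The other 6 libraries were labelled Ctrl sucrose and trxRNAi DSS, 3 each. Whether replicates came from separate flies or sorts, and how many guts a library pooled, is not stated in the labels, so p-values measure only the spread between these samples.

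The fly midgut is renewed by intestinal stem cells, whose daughters become either absorptive enterocytes or hormone-secreting enteroendocrine (EE) cells. EE cells store peptide hormones such as Neuropeptide F (NPF), Allatostatin C (AstC), Orcokinin and Tachykinin (Tk) in dense core vesicles, and different regions of the gut hold different combinations of them. Trx is a histone methyltransferase that places the active chromatin mark on lysine 4 of histone H3 and is known for keeping developmental genes on.

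Values were whole numbers scaled by the authors, with totals between 5362337 and 6091800 in the 6 libraries and between 10528 and 11213 genes above 0. Read depth behind a value is therefore unknown, and a difference in total RNA per cell cannot be measured on this scale. Of 7 progenitor markers in the files (Sox21a, Sox100B, spdo, mira, klu, heca and N), 7 were detected and 0 were called between the groups. They made up 0.242 to 0.340% of the Ctrl DSS totals and 0.199 to 0.252% of the trxRNAi sucrose totals. In each of the 6 libraries heca had the highest value of the 7, at 7408 or more, where no other marker passed 1557. The markers summed for neighbouring tissues were low in both groups. The 5 visceral muscle markers took at most 0.00177% of a total and the 2 tracheal markers at most 0.00163%. The 4 hemocyte markers took at most 6.79e-05%, with eater and He at 0. Fat body and ovary markers took at most 0.000157%, with vas and osk at 0. The longer tissue lists used below also hold genes with higher values, named after these were seen. In the 6 libraries Tm1 of the muscle list read 3809 to 10864, crq of the hemocyte list 504 to 667 and sty of the tracheal list 4593 to 9714. Neuron markers took 0.0153 to 0.0223% of Ctrl DSS and 0.0148 to 0.0195% of trxRNAi sucrose totals, nearly all of it from elav, with VGlut at 0. Ctrl DSS replicate 3 stood apart from its group: 712 genes lay more than 2-fold outside both other libraries, against 179 and 431 for replicates 1 and 2 and 158 to 308 for the trxRNAi sucrose libraries.

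The libraries did not group by their feed labels. With every library of one set above every library of the other, 1 of 8399 genes split DSS from sucrose, 165 split trxRNAi from Ctrl, and 360 split this pair from the other 2 groups. If the feed labels of 1 genotype had been exchanged, the pair would hold the 2 genotypes on the same feed, and each difference below would be one of genotype. Whether they were was not tested, no measurement independent of the labels being used here, and the libraries are called by their labels throughout.

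The targeted gene did not separate the pair. The value of trx (FBgn0003862, dm6 3R:14263358-14286903) was 841, 1041 and 652 in Ctrl DSS replicates 1 to 3 and 668, 667 and 448 in trxRNAi sucrose replicates 1 to 3. The lowest control library lay below the highest knockdown libraries, so the groups overlapped. The log2 difference of value plus 2, trxRNAi sucrose minus Ctrl DSS, was -0.50 ± 0.19 (SE, n = 3 libraries a group), with a 95% confidence interval of -0.91 to -0.10 and an adjusted p of 0.519 from limma. In the other 2 groups trx stood at 1114, 1217 and 1313 under Ctrl sucrose and at 715, 758 and 808 under trxRNAi DSS.

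Among the 6 possible pairs of the 4 groups, this one had the fewest genes that differed. Testing covered the 8399 genes that reached a value of 10 in 3 or more of the 12 libraries. Of these, 16 passed an adjusted p of 0.05, or 0.19% of those tested. Genes lower in trxRNAi sucrose numbered 14 (0.167%) and genes higher numbered 2 (0.0238%). The opposite crossed pair, trxRNAi DSS against Ctrl sucrose, gave 151 calls (1.8% of genes tested). DSS against sucrose gave 259 in controls (3.08%) and 298 in the knockdown (3.55%), and the knockdown against control gave 393 under sucrose (4.68%) and 793 under DSS (9.44%). At an unadjusted p under 0.05 the pair had 615 genes, again the fewest, where the others had between 1057 and 1881.

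**Figure D1:**
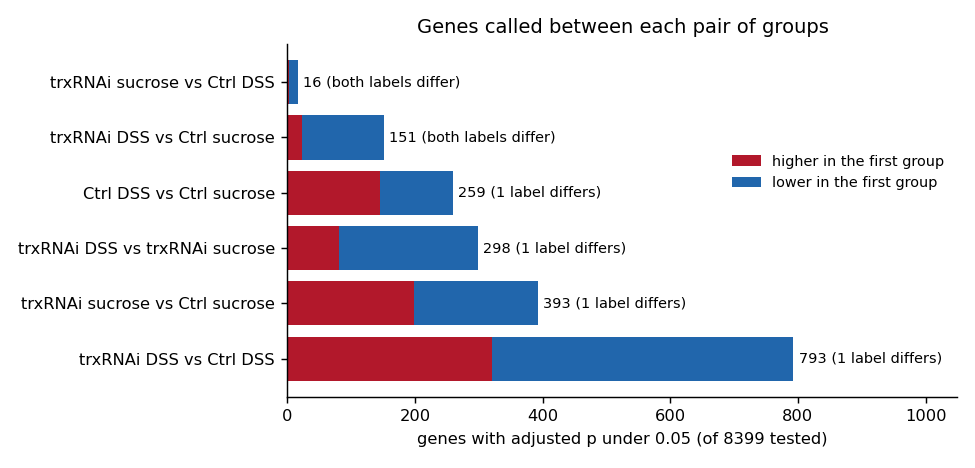
Number of genes with an adjusted p under 0.05 (x axis, linear from 0) in each of the 6 pairs of groups (red, higher in the group named first; blue, lower), 3 libraries a group and 8399 genes tested. The pair of trxRNAi sucrose and Ctrl DSS had 16 calls, and the other pairs had between 151 and 793.

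Differences between the groups were small. The median absolute log2 difference was 0.21, against 0.23 to 0.31 in the other pairs, and 334 genes differed more than 2-fold, against 611 to 982. For 5183 genes (61.7%) the 95% confidence interval lay wholly within 2-fold in either direction, and in the other pairs for 53.5 to 58.7%. All pairs share 1 variance estimate per gene, so these shares follow the size of the differences and say nothing of the width of the intervals. The median SD of a gene's log2 values was 0.34 among the Ctrl DSS libraries and 0.25 among the trxRNAi sucrose libraries. Libraries of the groups correlated across genes with Spearman's rho between 0.942 and 0.963. Among the 3 Ctrl DSS libraries themselves rho was 0.924 to 0.966, and among the 3 trxRNAi sucrose libraries it was higher, 0.963 to 0.975. Genes are not independent replicates, and these correlations are given as descriptions only. The median log2 difference of all genes was -0.00.

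**Figure D2:**
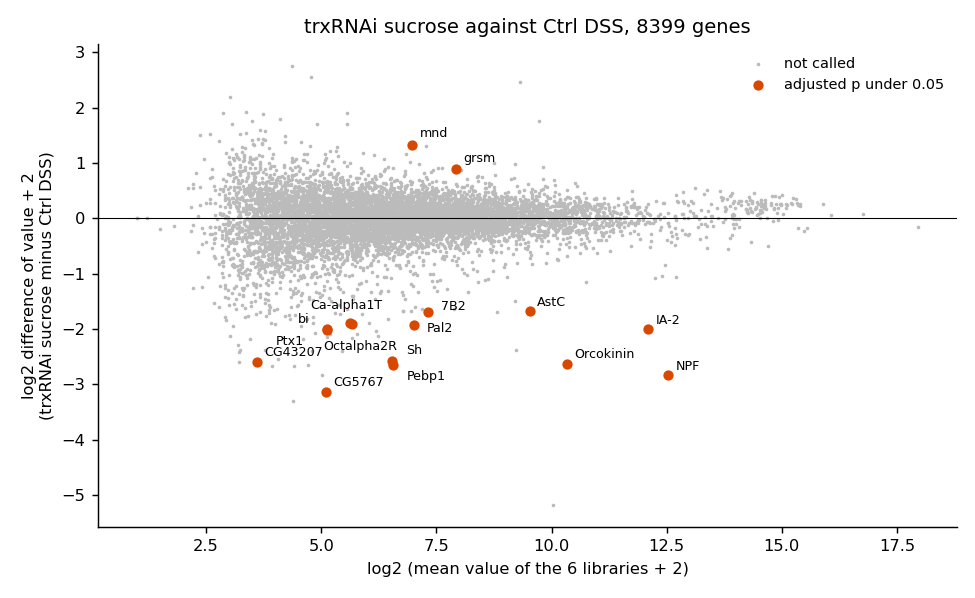
Log2 difference of value plus 2, trxRNAi sucrose minus Ctrl DSS (y axis), against the log2 mean value plus 2 of the 6 libraries (x axis), for 8399 genes. The 16 called genes are drawn large and named; 14 lie below 0, between -1.68 and -3.13, and mnd and grsm lie above 0.

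All 16 called genes had libraries that did not overlap between the groups, as did 11.8% of all genes tested (5.98% lower, 5.79% higher). The count depended on single libraries. It was 5 without Ctrl DSS replicate 1, 14 without replicate 2 and 62 without replicate 3, the library that stood apart, and all 16 genes were among the 62. It was 8 without trxRNAi sucrose replicate 1, 8 without replicate 2 and 18 without replicate 3. NPF, AstC, Orcokinin, IA-2 and Pebp1 passed under each of the 17 alternatives run, and the other 11 calls ended without Ctrl DSS replicate 1.

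Of the genes called lower, 3 encode peptide hormones. NPF (FBgn0027109, 3R:16609220-16611325), a hormone of EE cells and of neurons that acts in feeding and metabolism, had values of 12080, 11462 and 7481 in Ctrl DSS and 2156, 1324 and 1005 in trxRNAi sucrose. Every control library was more than 3-fold above every knockdown library, and NPF was 7.11-fold lower on the scale of value plus 2, with a log2 difference of -2.83 ± 0.29 (adjusted p = 0.00156). Orcokinin (FBgn0034935, 2R:23946959-23949076), a neuropeptide made in EE cells, had values of 3234, 2012 and 1424 against 445, 262 and 331. It was 6.18-fold lower (-2.63 ± 0.31, adjusted p = 0.00322). AstC (FBgn0032336, 2L:11076165-11081399), a somatostatin-like inhibitory peptide, stood at 1386, 974 and 991 against 465, 290 and 296. Its difference was smaller, 3.21-fold (-1.68 ± 0.21, adjusted p = 0.00156).

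Tk (FBgn0037976), the tachykinin precursor, missed the threshold. Its values were 842, 743 and 1001 in Ctrl DSS and 247, 249 and 451 in trxRNAi sucrose, with no overlap and a log2 difference of -1.49 ± 0.31 (adjusted p = 0.0776). Dh31, the diuretic hormone of the same class of EE cells as Tk, stood at 74, 48 and 83 against 9, 4 and 32 (-2.39 ± 0.53, adjusted p = 0.0935). AstA, the allatostatin A precursor, stood at 109, 96 and 93 against 68, 38 and 29 (-1.19 ± 0.33, adjusted p = 0.207). All these peptides were lower in every knockdown library than in every control library, which was true of 8 of the 11 hormones tested and of 5.98% of all genes tested. The remaining 3 overlapped, of which ITP and CCHa2 are named after their values were seen. ITP, the ion transport peptide, read 1116, 1042 and 1901 against 1398, 1466 and 1627, with a 95% confidence interval of -0.22 to 0.62. CCHa2, a nutrient-responsive peptide, read 1064, 581 and 4385 against 804, 779 and 1960, and the highest value of both CCHa2 and ITP was that of Ctrl DSS replicate 3.

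Of the list of 15 EE hormones, 13 were in the files and 11 passed the filter. Of these 3 were called lower and 0 higher, with a median log2 difference of -1.49, beside -0.00 over all genes and 0.167% of all genes called lower. Mip and CCAP, at values of at most 15 in the 6 libraries, were below the filter. The 7 EE markers summed to between 0.227 and 0.347% of the Ctrl DSS totals and between 0.0496 and 0.0770% of the trxRNAi sucrose totals. NPF had the highest value of the 7 in every Ctrl DSS library, and the called hormones NPF, AstC and Orcokinin are part of the sum. The marker pros, also in the sum, overlapped between the groups, with a log2 difference of 0.08. In sorted bulk samples fewer hormone-expressing cells and less hormone RNA per cell cannot be told apart. Which of the sorted cells held the hormone RNA was not tested.

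Genes that process and release peptide hormones were called as well. IA-2 (FBgn0031294, 2L:1008378-1048053), a phosphatase-like membrane protein of dense core vesicles, had values of 6309, 4528 and 10381 in Ctrl DSS and 1768, 1361 and 1900 in trxRNAi sucrose. It was 4.01-fold lower (-2.01 ± 0.26, adjusted p = 0.00322), and its highest value was that of Ctrl DSS replicate 3. 7B2 (FBgn0041707, 3R:5376780-5377975), a chaperone of the prohormone convertase Amontillado, had even values within each group, 260, 221 and 248 against 87, 69 and 66 (-1.70 ± 0.25, adjusted p = 0.00368). Pal2 (FBgn0262728, 2R:23688077-23690838), an enzyme of the last step of peptide amidation, read 226, 109 and 280 against 43, 41 and 65 (-1.93 ± 0.34, adjusted p = 0.0214). Without Ctrl DSS replicate 1 the calls of 7B2 (adjusted p = 0.0505) and Pal2 (0.203) ended, and that of Pal2 also without trxRNAi sucrose replicate 1 (0.113) or 2 (0.135). Of the 16 called genes 6 overlap another annotated gene, whose values were at most 16 except for that at Pal2. Pal2 overlaps CG30183 on the opposite strand, which had values between 17 and 42 in the 6 libraries, and whether the counting used strand is not given in the sources used here.

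Over the list of 24 granule and exocytosis genes, 23 were tested. Of these 3 were called lower and 0 higher, 14 were lower and 1 was higher with no overlap between the libraries, and the median log2 difference was -0.75. Over all genes tested, 0.167% were called lower, and 5.98% were lower and 5.79% higher with no overlap. Several further members came close to the threshold and are named after their values were seen. The calcium channel subunit gene cac read 186, 151 and 251 against 83, 81 and 63 (-1.33 ± 0.27, adjusted p = 0.0556), and the carboxypeptidase gene svr read 1644, 1313 and 1298 against 892, 888 and 745 (-0.75 ± 0.16, adjusted p = 0.0766). Syx1A, a plasma membrane SNARE, did not show such a gap and read 765, 925 and 1518 against 1249, 1297 and 1095, with a 95% confidence interval of -0.19 to 0.67.

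**Figure D3:**
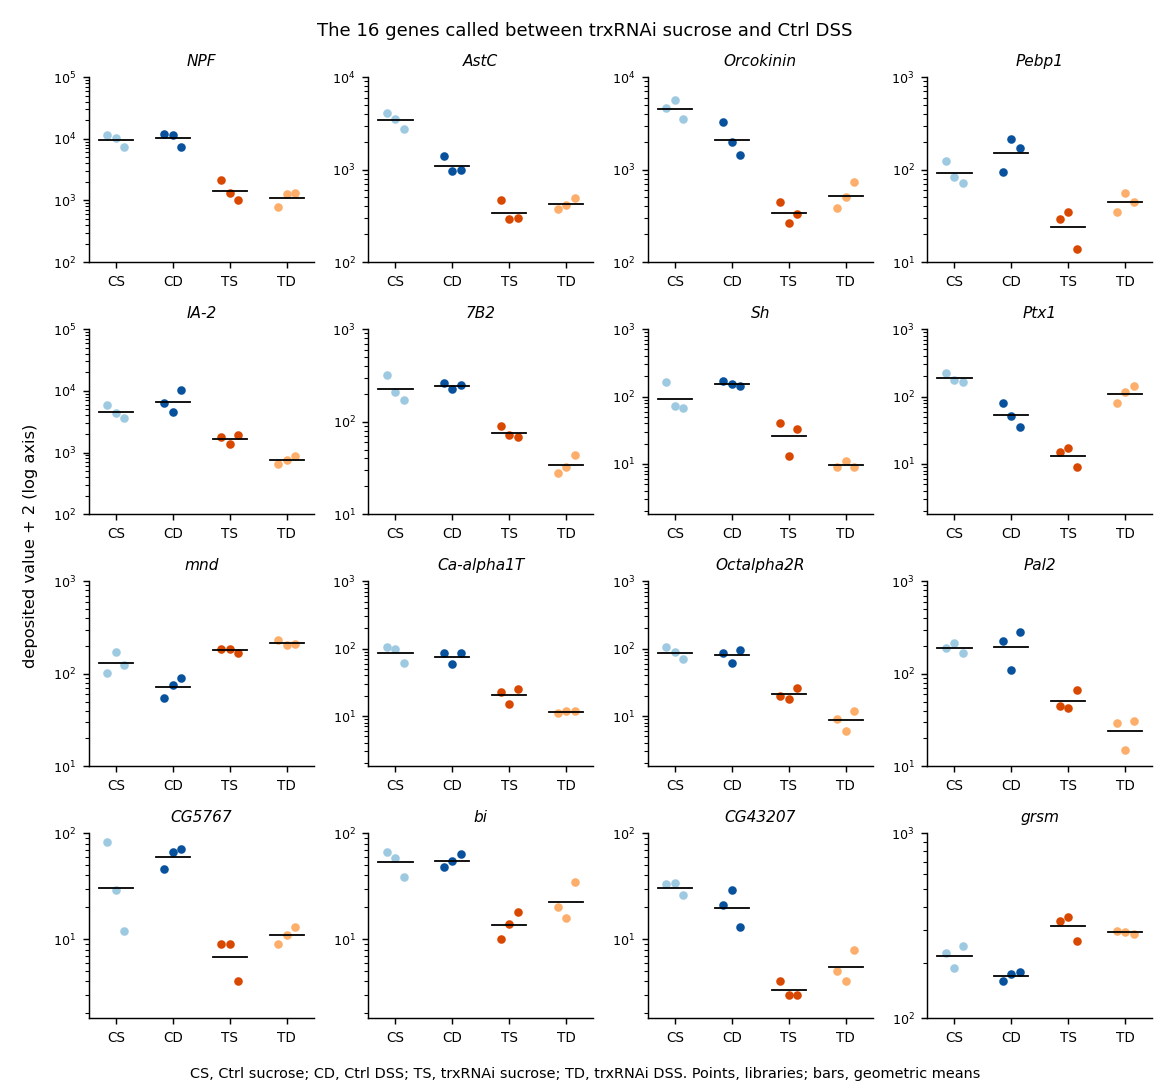
Deposited value plus 2 (log axis) of the 16 called genes in each of the 12 libraries, 3 points a group with a bar at the group's geometric mean. In each panel the 3 trxRNAi sucrose points lie on one side of the 3 Ctrl DSS points: 14 genes are lower and mnd and grsm are higher.

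Excitability and signalling genes were also among those lower in trxRNAi sucrose. Sh (FBgn0003380, X:17924307-18063247), the Shaker voltage-gated potassium channel, had values of 171, 151 and 142 in Ctrl DSS and 39, 11 and 31 in trxRNAi sucrose. The difference was 6.01-fold (-2.59 ± 0.41, adjusted p = 0.00805). Ca-alpha1T (FBgn0264386, X:6104085-6192483), a T-type voltage-gated calcium channel subunit, read 83, 58 and 85 against 21, 13 and 23 (-1.89 ± 0.33, adjusted p = 0.0172). Octalpha2R (FBgn0038653, 3R:18799280-18849224), a receptor for the amine octopamine, read 84, 60 and 92 against 18, 16 and 24 (-1.91 ± 0.34, adjusted p = 0.0214). For these channels and this receptor no knockdown library reached a value of 40, and no control library fell below 58. Pebp1 (FBgn0038973, 3R:22466034-22466679), of the phosphatidylethanolamine-binding protein family, read 93, 215 and 171 against 27, 33 and 12 (-2.66 ± 0.37, adjusted p = 0.00322). Leaving out Ctrl DSS replicate 1 ended the calls of Sh (adjusted p = 0.106), Ca-alpha1T (0.165) and Octalpha2R (0.201). Leaving out trxRNAi sucrose replicate 1 or 2 also ended those of Ca-alpha1T (0.0560 and 0.122) and Octalpha2R (0.0960 and 0.135).

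A pair of transcription factor genes was called lower. Ptx1 (FBgn0020912, 3R:30912754-30930682), a homeodomain factor that acts in EE cell identity and marks a region of the midgut, had values of 78, 50 and 33 in Ctrl DSS and 13, 15 and 7 in trxRNAi sucrose. It was 3.99-fold lower (-2.0 ± 0.33, adjusted p = 0.0153). In Ctrl sucrose and trxRNAi DSS, the groups outside this pair, it stood higher than in either, at 218, 176 and 162 and at 77, 115 and 140, apart from the lowest of these, which was 1 below the highest Ctrl DSS value. The call ended with the 6 libraries fitted alone (adjusted p = 0.108), by voom, limma's method with precision weights (0.207), without Ctrl DSS replicate 1 (0.149) and without trxRNAi sucrose replicate 3 (0.0546). The T-box factor gene bi (FBgn0000179, X:4412856-4485647) read 46, 53 and 62 against 8, 12 and 16 (-2.02 ± 0.37, adjusted p = 0.0264). Its call ended without Ctrl DSS replicate 1 (adjusted p = 0.149) or 2 (0.0961), without trxRNAi sucrose replicate 1 (0.116) or 2 (0.122), and by voom (0.0840).

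The remaining genes called lower have no named function in the annotation. CG5767 (FBgn0034292, 2R:18046386-18047484) had values of 44, 65 and 69 in Ctrl DSS and 7, 7 and 2 in trxRNAi sucrose, and was 8.77-fold lower (-3.13 ± 0.56, adjusted p = 0.0214). CG43207 (FBgn0262843, 2R:23152748-23153318), which fell outside the naming rule and is named after its values were seen, read 19, 27 and 11 against 2, 1 and 1 (-2.59 ± 0.49, adjusted p = 0.0306). Both rest on low values, where a pseudocount of 2 understates a fold. Their calls ended without Ctrl DSS replicate 1 (adjusted p = 0.120 for CG5767 and 0.215 for CG43207) and 2 (0.0961 and 0.179), and without trxRNAi sucrose replicate 1 (0.0595 and 0.0777), 2 (0.0777 and 0.135) and 3 (0.0956 and 0.0920). Both also missed the threshold by voom (0.168 for each), and CG43207 with the 6 libraries fitted alone (0.116).

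The genes called higher both act on amino acids or peptides. mnd (FBgn0002778, 3L:14985100-14991667), minidiscs, an amino acid transporter, had values of 52, 73 and 88 in Ctrl DSS and 184, 184 and 165 in trxRNAi sucrose. It was 2.51-fold higher (1.33 ± 0.23, adjusted p = 0.0157), and its call ended without Ctrl DSS replicate 1 (0.149) and without trxRNAi sucrose replicate 1 (0.0777) or 2 (0.104). grsm (FBgn0040493, 3R:12950042-12967712), a leucyl aminopeptidase gene, read 157, 171 and 176 against 334, 350 and 260. Its difference was the smallest of the 16 called genes, 1.85-fold (0.89 ± 0.17, adjusted p = 0.0446). The grsm call ended in 10 of the 17 alternatives, with adjusted p up to 0.265, among them without Ctrl DSS replicate 1 (0.256) or 2 (0.114) and without trxRNAi sucrose replicate 1 (0.180) or 2 (0.265).

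Genes that set EE fate, as distinct from EE products, did not separate the groups as a list. Of 14 fate factors 11 were tested, 1 (Ptx1) was called lower and 0 higher, and the median log2 difference was -0.01. pros, whose homeodomain protein marks EE cells, had values of 891, 553 and 1870 in Ctrl DSS and 1021, 853 and 1256 in trxRNAi sucrose. The knockdown libraries lay inside the range of the controls, and the 95% confidence interval ran from -0.67 to 0.83. For comparison, pros stood at 508, 402 and 300 in Ctrl sucrose and at 94, 106 and 104 in trxRNAi DSS. The bHLH gene tap, named after its values were seen, was uncalled but lower with no overlap, at 199, 154 and 141 against 53, 51 and 46 (-1.67 ± 0.37, adjusted p = 0.0810). ttk, a repressor of EE fate named in the same way, was uncalled but higher with no overlap, at 1058, 1379 and 1536 against 1838, 1682 and 1589 (0.38 ± 0.18, adjusted p = 0.668). The proneural gene sc, chosen in the same way, read 25, 35 and 24 against 37, 24 and 23, with an interval of -1.17 to 1.15, wide enough to hold a 2-fold difference either way.

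**Figure D4:**
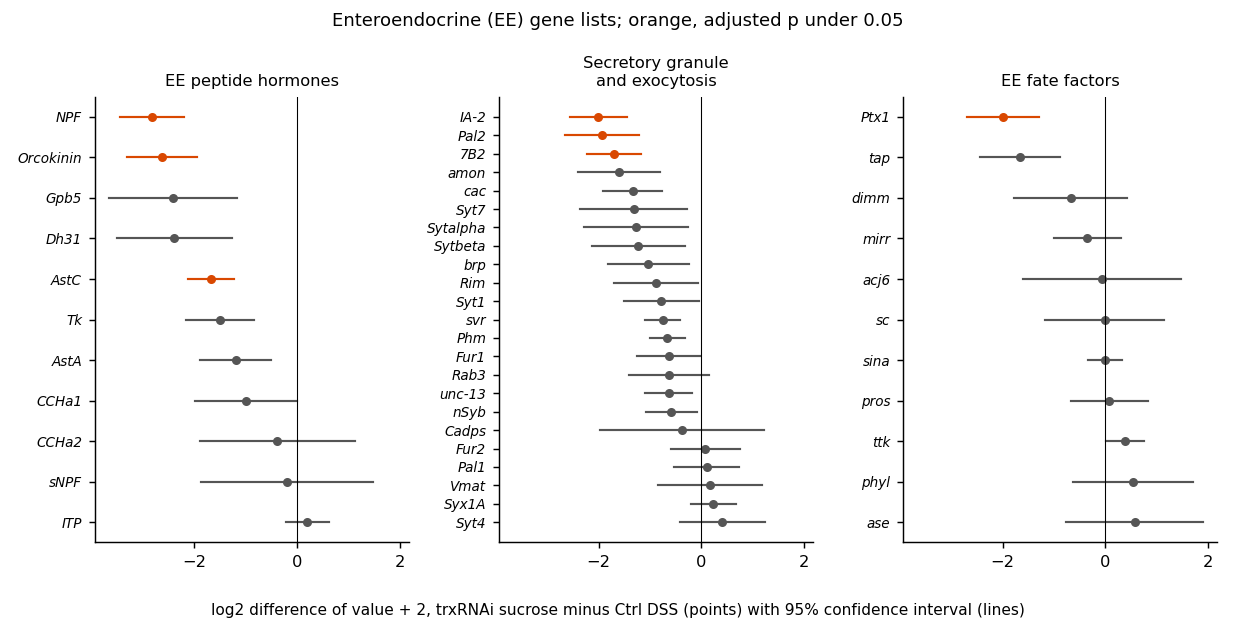
Log2 difference of value plus 2, trxRNAi sucrose minus Ctrl DSS, with its 95% confidence interval for each tested member of the EE hormone, granule and exocytosis, and EE fate lists (n = 3 libraries a group, called genes in orange). Hormones run from -2.83 (NPF) to 0.20 (ITP), and fate factors centre at a median of -0.01.

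The remaining 6 libraries share none with this pair and give a separate set of values for the same genes, although the variance estimate is common to both. Of the 14 genes lower in trxRNAi sucrose, 10 were also called lower in trxRNAi DSS against Ctrl sucrose, which is 71.4% of the 14 and 7.81% of the 128 genes called lower there (1.52% of all genes tested). All 14 had the same sign, and 13 had libraries that did not overlap, as did 10.9% of all genes tested in the lower direction. NPF read 11446, 10175 and 7491 in Ctrl sucrose and 794, 1249 and 1340 in trxRNAi DSS (-3.12, adjusted p = 7.75e-05). Its level thus sat between 7481 and 12080 in all 6 control libraries and between 794 and 2156 in all 6 knockdown libraries. AstC read 4073, 3516 and 2746 against 372, 417 and 489 (-3.0, adjusted p = 5.59e-07), so that the Ctrl DSS libraries of this pair held lower AstC than the Ctrl sucrose libraries. Over all 12 libraries 12 of the 14 genes had every control library above every knockdown library, as did 1.24% of all genes tested. The 14 were called for their gap within the pair, which is part of that split, so the 2 figures are not alike. Only the split in the other 6 libraries is separate from the calls.

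Members that did not pass in the other 6 libraries were Pebp1 (-1.03, adjusted p = 0.182), Ptx1 (-0.76, 0.292), CG5767 (-1.49, 0.209) and bi (-1.26, 0.10). mnd read 101, 169 and 121 in Ctrl sucrose and 229, 204 and 209 in trxRNAi DSS (0.74, adjusted p = 0.112), and grsm read 223, 185 and 244 against 295, 291 and 284 (0.42, adjusted p = 0.255). Both had the same sign there and libraries that did not overlap, as did 9.36% of all genes tested in the higher direction.

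None of the 12 genes that varied most over the series was called within the pair. The genes with the widest range of group means, between 6.08 and 8.01 on the log2 scale, were lcs, whe, CG34212, CG16826, CG13947, CG45080, CG43680, CG33109, lncRNA:CR34335, LysD, LysB and CG44142. Between trxRNAi sucrose and Ctrl DSS they differed by -1.63 to 0.13 (log2), with adjusted p between 0.203 and 0.996. The noncoding RNA gene lncRNA:CR34335 read 1450, 2206 and 892 in Ctrl DSS and 837, 1198 and 1066 in trxRNAi sucrose, against 94919, 100895 and 76749 in Ctrl sucrose and 102145, 89533 and 82960 in trxRNAi DSS. lcs ran the other way, at 6808, 8130 and 4843 and at 2427, 4594 and 2535 in the pair, against 206, 107 and 48 in Ctrl sucrose and 27, 43 and 10 in trxRNAi DSS. LysD, a digestive lysozyme, read 544, 1284 and 321 and 233, 561 and 187, against values of at most 9 in the other libraries. Of these 12 genes 11 were lower in trxRNAi sucrose than in Ctrl DSS in the mean log2 value, and none was called. Over the 100 genes with the widest range, whose median range was 3.61, the median absolute log2 difference within the pair was 0.96. It was under 1 in 51 of them, and 9 of the 100 were among the 16 called genes, where 0.19% of all genes tested were called. The ranking used the means of these groups too, so that count is a description.

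**Figure D5:**
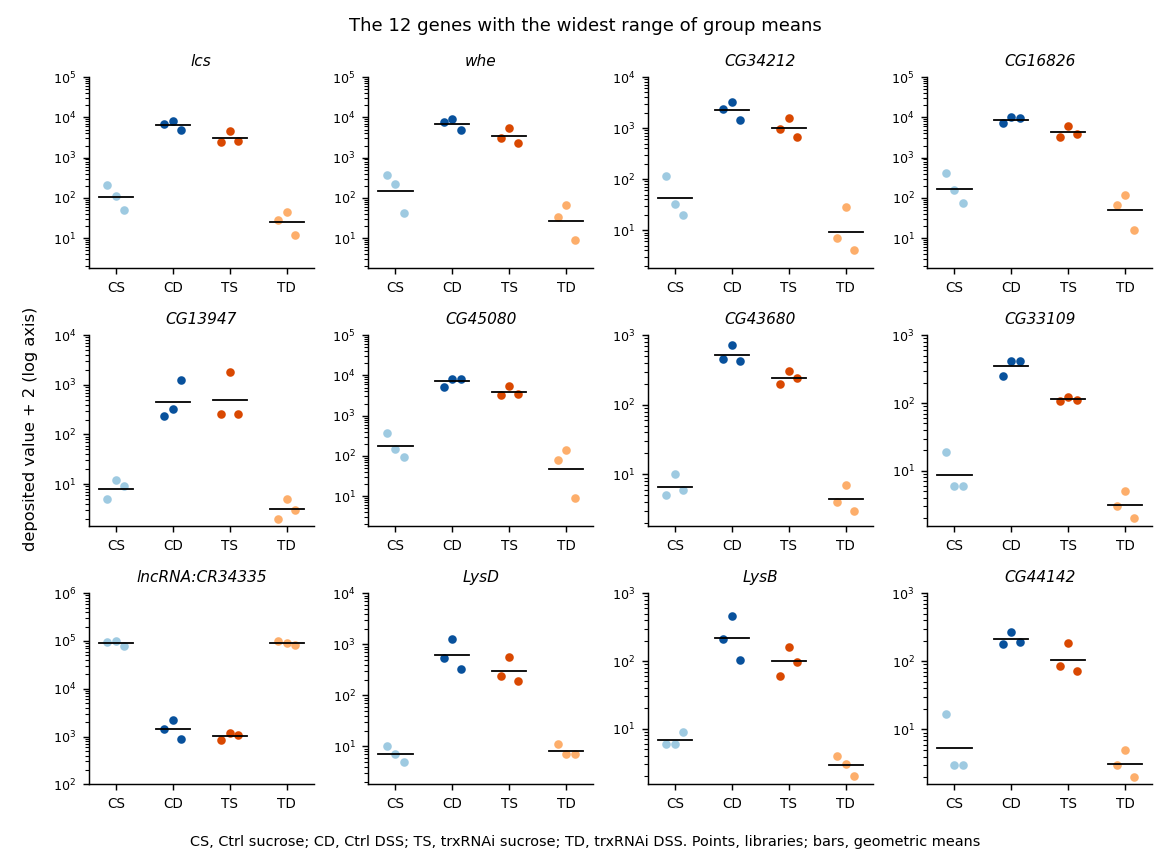
Deposited value plus 2 (log axis) in the 12 libraries for the 12 genes with the widest range of group means, 3 points a group with a bar at the geometric mean. For each of the 12 genes the 6 libraries of trxRNAi sucrose and Ctrl DSS lie together, apart from the 6 libraries of the other groups.

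Over all 8399 genes, the 360 that split the pair from the other 6 libraries (4.29%) were 203 higher and 157 lower in the pair. The genes split by genotype label were 1.96% of those tested, and by feed label 0.0119%. Of the 100 genes with the widest range, 56 were split between this pair and the other groups, 15 by genotype label and 0 by feed label. Of the 16 genes called between trxRNAi sucrose and Ctrl DSS, 13 were split by genotype label. By feed label, or between the pair and the other groups, 0 were split. The 16 were chosen for a gap within the pair, which a split by genotype or feed label requires, so these counts are descriptions. Every direction given here rests on the feed and genotype labels as submitted.

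Other programmes showed few or no calls. S phase genes, which serve DNA replication, had 0 of 25 tested members called, though 22 had a positive sign and 7 were higher with no overlap (5.79% of all genes tested), with a median of 0.43. Cytosolic ribosomal protein genes had 0 of 88 called, 77 with a positive sign and a median of 0.23. With no overlap, 22 of them were higher and 0 lower. Their share of the total was 31.6 to 35.0% in Ctrl DSS and 35.4 to 38.4% in trxRNAi sucrose. Nuclear oxidative phosphorylation genes had 0 of 66 called, 63 with a positive sign and a median of 0.21, and 4 were higher and 0 lower with no overlap. These shifts are small on the log2 scale, and after rescaling to the mean total their medians were 0.38, 0.18 and 0.16. Since genes of a list share libraries, the counts of signs are descriptions and carry no test.

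Lists near the median of all genes and without calls were mitosis (27 tested, median -0.03), the Notch pathway and its targets (16, 0.18), EGFR/MAPK signalling (17, -0.01), JAK/STAT signalling (9, 0.03), the JNK wound response (10, -0.01), genes of oxidative stress (23, 0.08), chaperones with the unfolded protein response (23, -0.05), the Polycomb group (20, 0.06), Trithorax group and COMPASS genes (24, -0.00) and the proteasome (32, 0.10). Of these lists the Notch list lay furthest from the median of all genes, with 4 members higher and 2 lower with no overlap. The Polycomb list had 3 higher and 0 lower in that way. The antimicrobial and PGRP list had 12 of its 31 genes tested and a median of 0.13, with 4 higher and 1 lower with no overlap. Enterocyte markers (14 tested, median -0.33), digestive enzymes (33, -0.48), lysozymes (4, -0.96) and gut hormone receptors (6, -1.05) lay lower, again with 0 called. Of the enterocyte markers 5 were lower and 0 higher with no overlap, beside 5.98% and 5.79% of all genes tested. Digestive enzymes had 1 in each direction, lysozymes 0 lower and 1 higher, and receptors 1 lower and 0 higher. The 6 enterocyte markers took 0.0544 to 0.125% of the Ctrl DSS totals, most in replicate 3, and 0.0624 to 0.0766% of the trxRNAi sucrose totals. Without that replicate the median of the enterocyte list was -0.19, that of digestive enzymes -0.85 and that of lysozymes -1.52. Lists of other tissues also had 0 called: visceral muscle (9 tested, median 0.09), trachea (4, -0.19), neurons (5, -0.59), hemocytes (2, 0.21) and fat body and ovary (2, -0.67). Of the neuron genes 3 (brp, nSyb and Syt1) were lower with no overlap, as were 5.98% of all genes tested. Those genes are also members of the granule and exocytosis list. Small nucleolar RNA genes (178 tested, median 0.08) and long noncoding and antisense RNA genes (163, 0.03) had 0 called too. Midgut regional factors had Ptx1 as the 1 called gene among 12 tested, with a median of -0.08. With no overlap, 4 of the 12 were lower and 0 higher. The homeotic gene lab, marker of the acid-secreting region and named after its values were seen, came next at 13, 8 and 13 against 1, 1 and 1 (-2.13 ± 0.43, adjusted p = 0.0503).

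Just outside the threshold, 31 genes had an adjusted p between 0.05 and 0.1, of which 8 were higher and 23 lower in trxRNAi sucrose. Of the 23, 15 were also called lower in trxRNAi DSS against Ctrl sucrose, where 1.52% of all genes tested were, and 2 of the 8 were also called higher there, where 0.274% of all genes tested were. Among the higher ones, named after their values were seen, the acid nuclease gene DNaseII read 234, 219 and 255 against 479, 548 and 537 (1.14 ± 0.23, adjusted p = 0.0528). sesB, the mitochondrial ADP/ATP carrier, read 6908, 6645 and 8217 against 10197, 11673 and 9980 (0.55 ± 0.13, adjusted p = 0.0976). Without Ctrl DSS replicate 3, the library that stood apart, the lists gained a few calls: hormone receptors had 1 called lower (AstA-R2), S phase 1 higher (CycE), oxidative phosphorylation 1 higher, antimicrobial and PGRP genes 1 lower (PGRP-SC1b) and 1 higher (Drsl3), and snoRNA genes 1 in each direction. The granule list had 4 called lower, and the hormone and fate lists kept their 3 and 1 calls.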

How the data were processed

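Sample titles gave the groups and replicate numbers. Each deposited file lists a whole number for each of 17617 genes. The authors scaled and rounded them, so they were treated as a score and not as raw counts: several libraries hold empty classes among low whole numbers, which unscaled counts would not leave. For the scaling tool, the counter, the annotation and the use of strand, the answer is not given in the sources used here. Per the submitters' processing notes, the tools were HISAT2, Bowtie2 and bcl2fastq, with limma, edgeR, DESeq2 and DESeq, no versions or roles being named, and the genome build was dm6.

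Symbols and positions came from Ensembl's annotation of that assembly, which matched 17520 identifiers and left 97 unmatched. Genes reaching a value of 10 in 3 or more of 12 libraries were fitted as log2 (value + 2), 1 mean per group, over all 12 libraries with limma 3.58.1 (intensity trend, robust variance; statmod 1.5.0, R 4.3.3). Adjusted p is by Benjamini-Hochberg over 8399 genes, with a threshold of 0.05. The script was tested on simulated data. Folds are those of value plus 2.

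The pair, the gene lists and the tests were chosen with earlier results of these data known. Named genes were trx, Ptx1, called genes with no overlap and a mean of at least 20 in the higher group, and called list members. Cell type markers are given with their values, and other genes are said to be named after their values were seen. The progenitor markers escargot and Delta were not analysed here. Alternatives were other pseudocounts (0.5, 10), filters, scalings and variance models, a replicate block, the 6 libraries alone, a minimum 2-fold difference and leaving out each library. The main fit did not pair libraries by replicate number.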

Additional observations from a re-analysis of the deposited data

Results flagged for a closer look

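For 8 of the genes that the naming rule above covers, the difference between trxRNAi and Ctrl was not the same under the feeds labelled DSS and sucrose. The test was the interaction term of the same limma fit. The share of all genes tested that passed it is not given here, so the count of 8 has no comparison. The values are log2 differences under DSS minus those under sucrose. Ptx1 had the largest of the 8, 4.87 (adjusted p = 2.89e-06). AstC had 1.93 (adjusted p = 0.000362), Orcokinin 1.73 (0.0284), mnd 1.12 (0.0345) and trx 0.92 (0.0416). IA-2 had -1.70 (adjusted p = 0.00869), Sh -2.20 (0.0231) and 7B2 -1.26 (0.0313). Genes outside the naming rule had larger terms, among them lcs at -12.9 (adjusted p = 1.99e-05), lncRNA:CR34335 at 12.5 (8.84e-11) and CCHa2 at -6.98 (0.00178). The term of pros was -4.62 (5.42e-05). The pair described above takes 1 group from each feed, so these terms describe the 4 groups and not the pair, and they rest on the feed labels as submitted.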

How the results depend on the processing

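The 16 calls became 25 with the 6 libraries fitted alone and 29 with a pseudocount of 10, and between 5 and 62 when 1 library was left out. They became 22 with a replicate block, which kept 15 of the 16. Deviations of same-numbered libraries correlated at 0.04, 0.06 and 0.15, and those of differently numbered libraries between -0.13 and 0.09. These few values do not settle whether the replicate numbers pair the libraries, and the main fit did not pair them. Voom gave 19 calls, 11 of them among the 16, and the other settings gave 15 to 17. In all 17 settings that give all 6 pairs of groups, this pair had the fewest calls, where the others had between 51 and 934. No direction of a named gene reversed, and trx stayed uncalled in all 17 alternatives, with adjusted p between 0.0991 and 0.876. List calls moved in a few settings: regional factors had 2 and enterocyte markers 1 after rescaling to the mean total, regional factors had 0 with the 6 libraries alone, and snoRNA genes had 1 with the replicate block. Leaving out Ctrl DSS replicate 3 for the lists was chosen after seeing the data; without it the medians of S phase, oxidative phosphorylation and ribosomal protein genes were 0.60, 0.40 and 0.13. The cause of each shift was not tested. Low values limit CG43207, CG5767 and lab most, and the depth in reads is unknown.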

Other observations

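The widest single difference was not called. CG42828 had values of 677, 3426 and 2024 in Ctrl DSS and 140, 35 and 17 in trxRNAi sucrose, a log2 difference of -5.18 ± 1.68 with an adjusted p of 0.50. It varied within the other groups too, at 63, 2939 and 50 in trxRNAi DSS and at 24, 275 and 45 in Ctrl sucrose. The libraries of the pair did not overlap, and only the trxRNAi DSS replicates spread as widely as the difference. The widest difference in the higher direction, CG7997, was also uncalled, at 3, 0 and 11 against 35, 35 and 27 (2.75 ± 0.76, adjusted p = 0.223).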
